A study of Homo sapiens with 12 samples.

Results

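The genes described here are 10 imprinted genes, SNRPN, H19, IGF2, MEG3, DLK1, PEG10, MEST, NDN, PEG3 and PLAGL1, out of 60617 gene identifiers in the expression tables. They were taken as a list of well known imprinted genes, and SNRPN had drawn attention through a large difference in count between the cell lines. That difference is therefore given below as a description, with no test, for all 10 genes, while the response to the drug within each line was tested. After a filter on low counts 6 of the 10 could be tested, namely SNRPN, H19, IGF2, PEG10, MEST and PLAGL1. MEG3, DLK1, NDN and PEG3 did not pass it.

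RNA-seq was carried out on HCT 116p53-/- cells, which derive from a human colon carcinoma and lack p53, and on HCT 116p53-/-RPL3 KO cells, a line derived from it. The labels call RPL3, which encodes the large-subunit ribosomal protein uL3, knocked out in the derived line, and the study describes that line as stably silenced for uL3. Each line received 5 nM actinomycin D (Act D) for 24 h or vehicle, which gives 4 groups of 3 libraries: HCT 116p53-/- with vehicle, HCT 116p53-/- with Act D, HCT 116p53-/-RPL3 KO with vehicle and HCT 116p53-/-RPL3 KO with Act D. At a low dose Act D blocks mainly RNA polymerase I and sets off nucleolar stress, and the study asked how uL3 bears on that response. Both lines lack p53, so that no group has it. The labels describe the libraries of a group as biological replicates, and each line stands for itself: the number of clones behind the derived line is not given in the sources used here.

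An imprinted gene is transcribed mainly from the copy inherited from the father or mainly from the copy inherited from the mother. The choice is written in the germ line as DNA methylation of a control region, and one control region governs a cluster of neighbouring genes. SNRPN, IGF2, DLK1, PEG10, MEST, NDN, PEG3 and PLAGL1 are expressed from the paternal copy and H19 and MEG3 from the maternal copy. Many of them act in fetal growth, are low in most adult tissues, and are gained or lost in tumours. Counts per gene do not tell the parental copies apart, and DNA methylation was not measured.

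SNRPN shares 1 of its starts with SNURF, a small open reading frame on the same transcripts, and PLAGL1 shares 1 of its starts with HYMAI, a non-coding RNA of the same control region. The sequences upstream of both shared starts are given because in each pair both genes differed between the lines in the same direction. They are the 250 bases before the RefSeq start on GRCh38.p14, written 5′ to 3′ on the strand of the gene, and capitals mark CG dinucleotides, the bases at which imprinted regions are methylated. The first lies at chr15:24954737-24954986 on the plus strand and the second at chr6:144008260-144008509 on the minus strand.
SNRPN and SNURF: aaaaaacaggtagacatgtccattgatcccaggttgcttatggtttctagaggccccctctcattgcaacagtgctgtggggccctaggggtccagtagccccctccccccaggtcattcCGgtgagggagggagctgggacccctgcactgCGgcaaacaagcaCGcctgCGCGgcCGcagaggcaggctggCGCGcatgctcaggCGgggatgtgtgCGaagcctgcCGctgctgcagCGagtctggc
PLAGL1 and HYMAI: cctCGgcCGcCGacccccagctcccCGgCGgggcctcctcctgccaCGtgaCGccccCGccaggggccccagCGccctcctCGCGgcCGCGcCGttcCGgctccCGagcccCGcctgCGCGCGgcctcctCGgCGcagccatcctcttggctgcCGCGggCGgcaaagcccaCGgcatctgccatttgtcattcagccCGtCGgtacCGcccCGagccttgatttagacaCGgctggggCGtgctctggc
The SNRPN window held 12 CG dinucleotides and the PLAGL1 window 32, against a median of 11 over the 34943 RefSeq windows of this length. At least 12 were found in 48.4% of those windows and at least 32 in 9.5%. The letters TGCCGC, the hexamer that the imprint-protecting zinc finger ZFP57 is known to bind when methylated, occurred 2 times in each window when both strands were read, each time over a CG that is also counted above, and 12.7% of all windows held it at least 1 time. Of the windows at their other RefSeq starts, those of SNRPN held 1 to 6 CG dinucleotides and those of PLAGL1 1 to 21. The match is a feature of the letters and no evidence of binding in these cells. RefSeq windows were matched for 6 of the 10 genes. The hexamer occurred in 8 of their 19 windows, some of which overlap one another.

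RPL3 itself was measured first, as a check of the labels. Its level was 1138 ± 15.3 counts per 1000000 counts of the library after TMM scaling (CPM; SD, n = 3) in HCT 116p53-/- with vehicle and 1242 ± 82.5 CPM in the libraries labelled RPL3 KO with vehicle, and it was 1127 ± 13.7 and 1223 ± 79.8 CPM with Act D. The RPL3 transcript was thus not lower in the libraries labelled RPL3 KO (log2 difference 0.13 ± 0.08 (SE) with vehicle, edgeR adjusted p = 0.155, and -0.11 with an adjusted p of 0.299 when scaled by library size alone), and these libraries are called by their label throughout. Library totals ranged from 10087925 to 21138886 expected counts. The lines differed widely in other genes too: of the 15692 genes tested, 71.3% differed between them with vehicle and 70.4% with Act D. Of 12 epithelial markers of colon 10 were tested, and 8 were lower and 1 higher in the libraries labelled RPL3 KO with either treatment (median log2 difference -3.09 with vehicle and -3.24 with Act D). Their summed level lay between 2621 and 2829 CPM in HCT 116p53-/- with vehicle and between 1608 and 1806 CPM in the libraries labelled RPL3 KO. Keratins KRT8 and KRT18 were abundant in both lines, while the adhesion gene CDH1 had 66.8 ± 2.34 CPM against 0.445 ± 0.271 CPM, and the intestinal factor CDX2 14.8 ± 0.581 against 0.177 ± 0.0862 CPM. VIL1 and CDX1, further intestinal markers, were near 0 in both lines. Of 10 fibroblast markers 6 were tested, and 5 were higher and 1, COL1A1, lower in the libraries labelled RPL3 KO with vehicle (median 7.10), LUM at least 50.8-fold from no counts in HCT 116p53-/-. Their summed level lay between 28.2 and 34.6 CPM in HCT 116p53-/- with vehicle and between 2309 and 2382 CPM in the libraries labelled RPL3 KO, most of it from VIM, while the fibroblast genes THY1 and FAP had 2 or 3 counts in each vehicle group. The 7 blood and endothelial markers summed to at most 2.55 CPM in any library. Every line difference given below moves together with these genes, and their part in it was not tested. In bulk RNA, fewer cells that express a gene and less of its RNA per cell cannot be told apart.

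SNRPN, on chromosome 15 (ENSG00000128739, chr15:24823637-24978723, plus strand), encodes SmN, a core protein of the spliceosomal small nuclear ribonucleoproteins that is most abundant in brain. HCT 116p53-/- libraries with vehicle had 0.259, 0.413 and 0.604 CPM of it, from 4, 6 and 10 counts. With Act D they had 1.50, 0.812 and 1.37 CPM, from 24, 12 and 17 counts. The level that 3 counts make, taken as the limit of detection, lay between 0.150 and 0.348 CPM among the libraries. The vehicle values stood at 4 to 10 counts against these 3. The libraries labelled RPL3 KO had 172.4, 173.5 and 156.2 CPM with vehicle and 178.0, 155.1 and 182.7 CPM with Act D. No library of one line came near any of the other, and within the libraries labelled RPL3 KO the treatments overlapped. From the summed counts, 20 against 7927, SNRPN was 390.2-fold higher in the libraries labelled RPL3 KO with vehicle (95% interval of the ratio 252.5 to 639.1, counting error only), and with Act D it was 141.2-fold higher (107.8 to 188.7). The groups ranked from HCT 116p53-/- with vehicle to HCT 116p53-/- with Act D and then to both groups labelled RPL3 KO, whose order is within their spread.

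**Figure D1:**
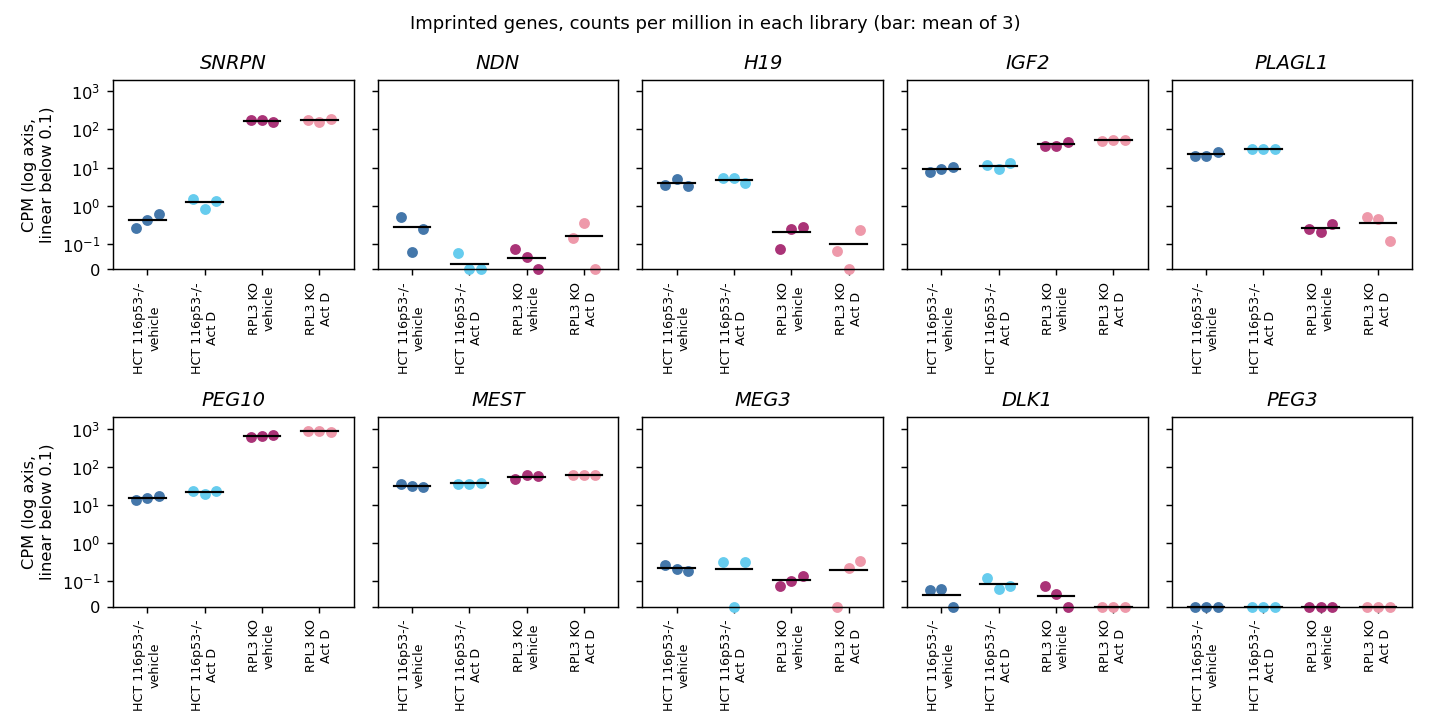
Level in CPM of the 10 imprinted genes in each library, with 1 panel per gene, 1 point per library, a bar for the mean of the 3 libraries of a group, and a log axis that is linear below 0.1 CPM. SNRPN and PEG10 sit far higher in both groups labelled RPL3 KO, PLAGL1 and H19 far lower, and NDN, MEG3 and DLK1 stay under 1 CPM while PEG3 stays at 0.

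The neighbours of SNRPN did not all differ in the same way. SNURF (ENSG00000273173) had at most 0.322 CPM in any HCT 116p53-/- library and 3.21, 7.46 and 5.06 CPM in the libraries labelled RPL3 KO with vehicle. It shares exons with SNRPN, so that how RSEM divided their reads is uncertain. When the counts of both were added, the line difference was 8.42 on the log2 scale with vehicle and 7.02 with Act D, against 8.58 and 7.12 for SNRPN alone. SNHG14, the long non-coding RNA that continues downstream of SNRPN and hosts small nucleolar RNAs, was higher too. It had 5.11 ± 0.366 CPM in HCT 116p53-/- with vehicle and 101.8 ± 9.61 CPM in the libraries labelled RPL3 KO (log2 difference 4.32 ± 0.11). Since SNURF lies on the transcripts of SNRPN and SNHG14 continues from it, their line differences are no independent support for that of SNRPN. Per kilobase of effective length, the SNRPN level was 0.261 of the SNHG14 level in HCT 116p53-/- with vehicle and 5.98 times it in the libraries labelled RPL3 KO. NDN (ENSG00000182636, chr15:23685400-23687305, minus strand), a paternally expressed member of the MAGE family, lies upstream in the same imprinted domain and had 21 counts in all 12 libraries together, at most 8 in any. From 13 against 2 counts it was 6.60-fold lower in the libraries labelled RPL3 KO with vehicle (1.50 to 60.3, with 8 of the 13 from 1 library), and from 1 against 5 counts 6.95-fold higher with Act D (0.778 to 328.7). MAGEL2, a further MAGE gene of the domain, had 4 and 2 counts in the groups labelled RPL3 KO and none in HCT 116p53-/-. MKRN3, a zinc finger gene at the far end, was expressed in both lines, at 6.80 ± 0.968 and 7.46 ± 1.63 CPM with vehicle. Its log2 difference was 0.14 ± 0.17 (edgeR adjusted p = 0.489), and -0.11 when scaled by library size alone. Within this domain the large difference was therefore measured at SNRPN, SNURF and SNHG14 and not at MKRN3, while NDN and MAGEL2 had too few counts to compare.

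IGF2 and H19 are neighbours on chromosome 11 that share enhancers and a control region and are expressed from opposite parental copies. IGF2 (ENSG00000167244, chr11:2129112-2158391, minus strand), a fetal growth factor, had 7.58, 9.09 and 10.6 CPM in HCT 116p53-/- with vehicle and 37.8, 35.8 and 47.9 CPM in the libraries labelled RPL3 KO with vehicle. With Act D it had 11.3, 8.93 and 13.1 CPM against 50.7, 53.7 and 51.1 CPM. The lines did not overlap, and the summed counts gave a ratio of 4.39 with vehicle (3.95 to 4.89) and 4.69 with Act D (4.23 to 5.20). H19 (ENSG00000130600, chr11:1995166-2004552, minus strand), a non-coding RNA that restrains growth, went the other way. It had 3.56, 4.89 and 3.20 CPM in HCT 116p53-/- with vehicle and 0.0803, 0.250 and 0.270 CPM in the libraries labelled RPL3 KO, from 1, 5 and 4 counts. With Act D, 5.17, 5.21 and 4.02 CPM stood against 0.0727, 0 and 0.232 CPM, and those last came from 3 counts in all. H19 was thus 18.2-fold lower with vehicle (9.66 to 38.6) and 50.4-fold lower with Act D (17.0 to 246.1), and at so few counts the ratio is known only within that wide interval. Per kilobase, IGF2 was at 0.680 of the H19 level in HCT 116p53-/- with vehicle and at 39.9 times it in the libraries labelled RPL3 KO.

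PLAGL1 (ENSG00000118495, chr6:143940300-144064599, minus strand), a zinc finger transcription factor that stops cell division, was the member that was lowest in the libraries labelled RPL3 KO relative to HCT 116p53-/- with vehicle. Its level was 20.4, 20.1 and 25.8 CPM in HCT 116p53-/- with vehicle and 0.241, 0.200 and 0.338 CPM in the libraries labelled RPL3 KO, from 12 counts in all. Act D libraries had 30.0, 30.0 and 31.1 CPM against 0.509, 0.457 and 0.116 CPM. The ratio was 87.5-fold lower with vehicle (49.9 to 169.9) and 78.7-fold lower with Act D (44.9 to 152.7). HYMAI, which shares the start printed above, had 60 counts over the 3 vehicle libraries of HCT 116p53-/- and 75 over the Act D libraries. It had none in the 6 libraries labelled RPL3 KO, which makes it at least 5.36-fold lower with vehicle and at least 5.03-fold lower with Act D when 3 counts per library are taken as the floor. Both genes of the pair were therefore low or without counts in the same 6 libraries.

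PEG10 (ENSG00000242265, chr7:94656325-94669695, plus strand) descends from a retrotransposon and is needed for the placenta. It was the most abundant of the 10 genes per kilobase in the libraries labelled RPL3 KO. HCT 116p53-/- libraries had 13.7, 14.9 and 17.5 CPM with vehicle and 22.9, 19.2 and 23.3 CPM with Act D. The libraries labelled RPL3 KO had 601.6, 625.0 and 691.8 CPM with vehicle and 849.2, 865.2 and 813.1 CPM with Act D. PEG10 was 41.4-fold higher there with vehicle (38.5 to 44.7) and 38.8-fold higher with Act D (36.4 to 41.45), and in both lines the Act D libraries lay above the vehicle libraries. SGCE, a sarcoglycan gene that is read in the opposite direction from the same imprinted region, differed less, with 5.45 ± 0.221 CPM against 16.1, 25.5 and 21.3 CPM with vehicle (log2 difference 1.95 ± 0.19, adjusted p = 3.48e-08). Per kilobase PEG10 and SGCE were nearly level in HCT 116p53-/- with vehicle, at a ratio of 1.05, and at a ratio of 13.8 in the libraries labelled RPL3 KO.

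MEST (ENSG00000106484, chr7:130486171-130506465, plus strand), a hydrolase-like protein of fetal mesoderm, differed least between the lines among the 6 genes that passed the filter. It had 35.2, 31.3 and 29.8 CPM in HCT 116p53-/- with vehicle and 46.4, 59.3 and 57.6 CPM in the libraries labelled RPL3 KO, and with Act D between 35.9 and 38.0 against between 62.0 and 62.5 CPM. The groups were still apart, at 1.73-fold with vehicle (1.62 to 1.84) and 1.70-fold with Act D (1.59 to 1.81). CPA4, a carboxypeptidase gene of the same cluster, differed in the opposite direction, from 92.6 ± 6.46 to 5.78 ± 0.769 CPM (log2 difference -4.01 ± 0.11, adjusted p = 2.97e-15), and COPG2, which overlaps the end of MEST on the other strand, had a log2 difference of -0.54 ± 0.11 (adjusted p = 0.000251).

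DLK1 and MEG3, of a cluster on chromosome 14, were nearly silent. DLK1 (ENSG00000185559, chr14:100725705-100738224, plus strand), a membrane protein that interacts with the Notch pathway, had 8 counts over the 12 libraries and at most 2 in any. MEG3 (ENSG00000214548, chr14:100779410-100861031, plus strand), a non-coding RNA, had 29 counts in all and at most 5 in any library. Differences between groups were not detectable for either at this depth. Farther along the cluster, MEG8 was measurable at 2.75 ± 0.250 CPM in HCT 116p53-/- with vehicle and 1.17 ± 0.600 CPM in the libraries labelled RPL3 KO. Its line difference was called with vehicle (edgeR adjusted p = 0.00864) and not with Act D (0.118). DIO3, which inactivates thyroid hormone, had 125 counts over the 3 HCT 116p53-/- vehicle libraries and 1 over the 3 labelled RPL3 KO (127.0-fold lower, 22.4 to 5055). PEG3 (ENSG00000198300, chr19:56810077-56840728, minus strand), a zinc finger gene of the chromosome 19 cluster, was without a count throughout the 12 libraries, which allows up to 0.150 to 0.348 CPM.

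**Figure D2:**
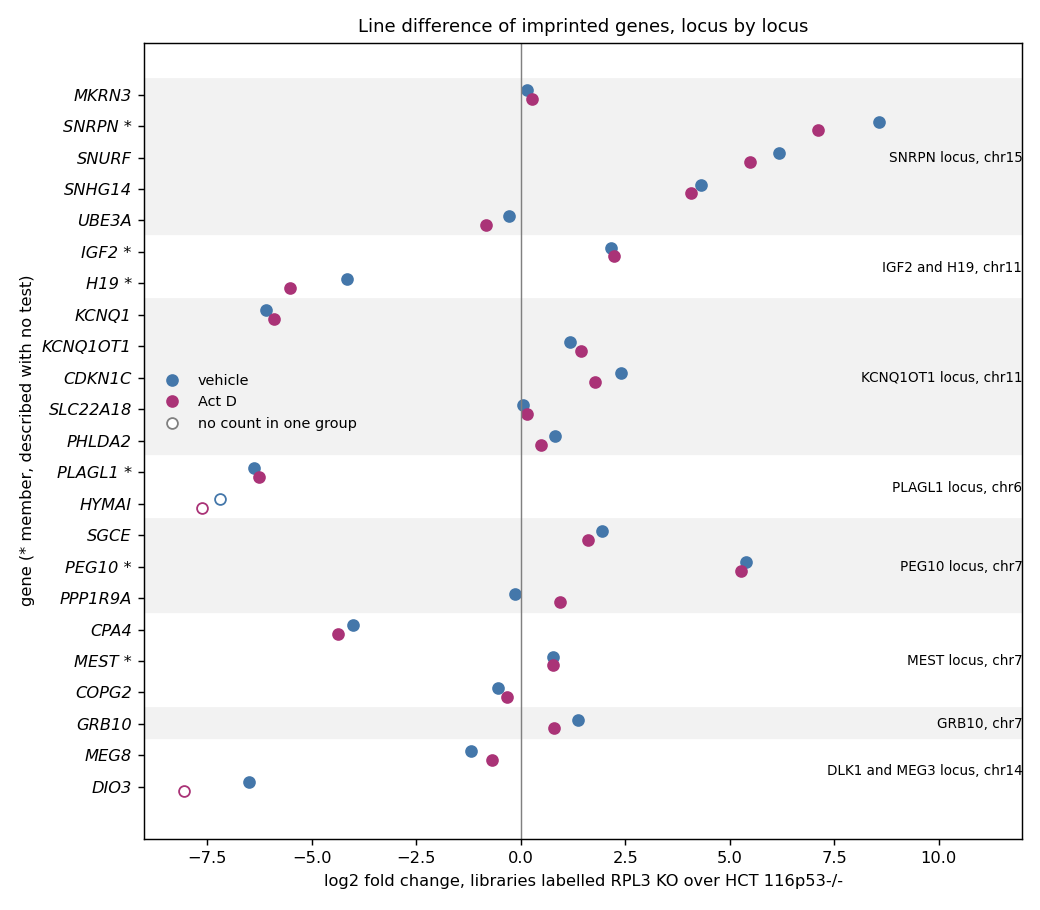
Fitted log2 difference between the libraries labelled RPL3 KO and HCT 116p53-/- for imprinted genes grouped by locus, with vehicle in blue and with Act D in purple; stars mark the genes described without a test, and open points rest on a group with no counts, where the value depends on the prior count of the fit. SNRPN, SNURF and SNHG14 stand to the right and MKRN3 at 0.14, while IGF2 at 2.15 and H19 at -4.15 lie on opposite sides.

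Of the 6 genes that passed the filter, 5 differed by at least 4-fold between the lines with vehicle, SNRPN, IGF2 and PEG10 being higher and H19 and PLAGL1 lower in the libraries labelled RPL3 KO, against 18.1% of all genes tested. With Act D 5 again did, against 17.5% of all genes. The groups did not overlap for all 6 in either comparison, where 72.5% of all genes tested did not overlap with vehicle and 74.1% with Act D. NDN, which did not pass the filter, is not in the count of 5. These shares concern the contrast for which SNRPN was chosen and nothing is read from them. At the threshold with vehicle, MEST at 1.73-fold was the nearest of the 6 outside and IGF2 at 4.39-fold the nearest inside. Per kilobase the order of the members also differed. In HCT 116p53-/- with vehicle MEST was highest, between 13.4 and 19.1 CPM per kilobase, followed by PLAGL1 between 8.62 and 11.9 and PEG10 between 3.10 and 5.40. Next came H19, between 2.64 and 3.56, IGF2, between 1.71 and 2.43, and SNRPN, between 0.190 and 0.488 CPM per kilobase, and of the neighbours in this order PEG10 and H19 overlapped and the others did not. In the libraries labelled RPL3 KO with vehicle PEG10 led, between 202.4 and 239.8, followed by SNRPN between 117.4 and 131.1, MEST between 20.9 and 29.0 and IGF2 between 8.30 and 10.9 CPM per kilobase. H19 and PLAGL1 came last there, at 0.202 to 0.268 and 0.110 to 0.318, and did not differ beyond their spread.

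Within HCT 116p53-/- cells, Act D raised 3 of the 6 genes tested, SNRPN, PEG10 and PLAGL1, past an edgeR adjusted p of 0.05. It lowered none (0 at an unadjusted p under 0.05 and 0 by DESeq2). All genes tested rose in 7.59% and fell in 11.1% of cases, and 18.7% were called. With scaling by library size alone 551 of all genes rose and 2309 fell, where 1191 rose and 1748 fell before. The median log2 fold change was 0.38 over the 6 genes that passed the filter and 0.02 over all genes. The former takes in SNRPN, which had few counts in this line, so nothing is read from it. PEG10 rose by 0.50 ± 0.11 on the log2 scale (adjusted p = 0.00351), with all 3 Act D libraries above all 3 vehicle libraries. PLAGL1 rose by 0.46 ± 0.13 (adjusted p = 0.0185), from 22.1 ± 3.19 to 30.4 ± 0.636 CPM, again without overlap. This call was lost without any 1 of 5 of the 6 libraries: without vehicle replicate 1 (0.40, adjusted p = 0.077) or 2 (0.39, 0.0857), or without Act D replicate 1 (0.47, 0.0588), 2 (0.47, 0.0527) or 3 (0.45, 0.0515). It was also lost with scaling by library size alone (0.36, 0.0862). H19 (0.31 ± 0.27, adjusted p = 0.482), IGF2 (0.28 ± 0.16, 0.25) and MEST (0.19 ± 0.10, 0.202) did not pass. The groups did not overlap for 4 of the 10 genes, the called ones and MEST, against 38.2% of all genes tested.

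SNRPN had the steepest fitted change of the 10 with Act D in HCT 116p53-/- cells, 1.49 ± 0.34 on the log2 scale (adjusted p = 0.00473), from 0.425 ± 0.173 to 1.23 ± 0.363 CPM. This is a change from 20 to 53 counts over 3 libraries each. Its neighbour SNHG14 rose by 0.43 in the same cells (edgeR adjusted p = 0.0215), a call lost in 7 of 13 alternative fits. The SNHG14 response was not called different between the lines (-0.26, edgeR adjusted p = 0.351). As a share of the mean level in the libraries labelled RPL3 KO with the same treatment, SNRPN in HCT 116p53-/- was at 0.254% with vehicle and at 0.712% with Act D. For comparison, 86 genes, SNRPN among them, had a mean of at least 20 CPM over the 6 libraries labelled RPL3 KO and at most 2% of it over those of HCT 116p53-/-, a set put together after the values were seen. Their median share was 0.489% with vehicle and 1.19% with Act D, and their median log2 fold change with Act D in HCT 116p53-/- was 1.02. Of the 86, 26 were called higher, where 7.59% of all genes tested were. The mirror set, 74 genes as much higher in HCT 116p53-/-, had a median share of 0.828% with vehicle and 1.05% with Act D in the libraries labelled RPL3 KO. Its median log2 fold change there was 0.20 and 2 were called higher, where 3.51% of all genes tested were. Both sets were cut by the line difference itself, so these values are given as a description, and their part in the SNRPN call was not tested.

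**Figure D3:**
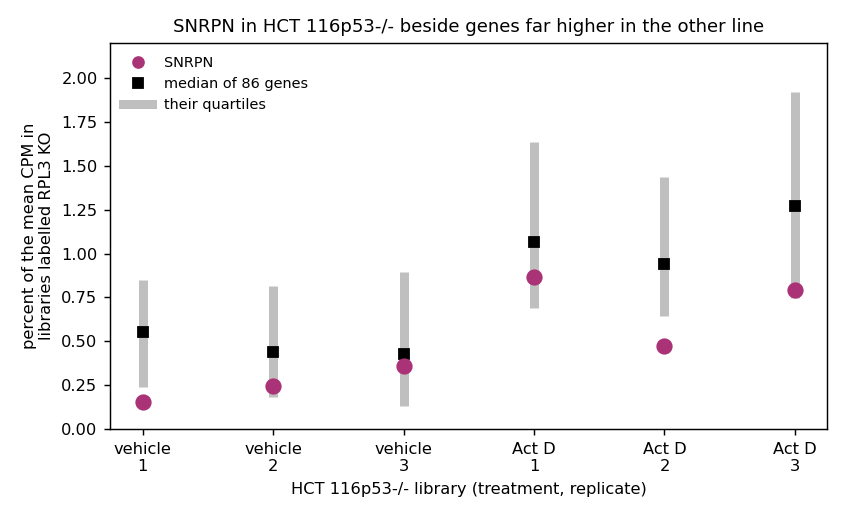
Level of SNRPN in each HCT 116p53-/- library as a percent of its mean level in the libraries labelled RPL3 KO with the same treatment (circles), with the median (squares) and quartiles (grey bars) of the 86 genes that are far higher in those libraries. SNRPN rose from between 0.155% and 0.361% to between 0.472% and 0.869%, and the median of the 86 genes from at most 0.552% to at least 0.942%.

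In the libraries labelled RPL3 KO, Act D raised 1 of the 6 genes tested, PEG10, and lowered none (0 at an unadjusted p under 0.05 and 0 by DESeq2). Of all genes tested 3.51% rose, 8.4% fell and 11.9% were called. The 551 and 1318 genes behind these shares became 227 and 1858 with scaling by library size alone and 944 and 1012 with upper quartile scaling. PEG10 rose by 0.40 ± 0.09 on the log2 scale (adjusted p = 0.00755), from 639.5 ± 46.8 to 842.5 ± 26.7 CPM, and the groups did not overlap. Under scaling by library size alone the value was 0.29 and the call was lost (adjusted p = 0.0557). SNRPN changed by 0.04 ± 0.10 (adjusted p = 0.854). IGF2 had 0.36 ± 0.13 (adjusted p = 0.0989), or 0.49 and an adjusted p of 0.0337 without vehicle replicate 3, and MEST 0.19 ± 0.10 (0.239). H19 rested here on 10 counts with vehicle and 3 with Act D, and PLAGL1 on 12 and 12, too few to detect a change. The groups did not overlap for 3 of the 10 genes, PEG10, IGF2 and MEST, against 27.6% of all genes tested. The median over the 6 genes that passed the filter was 0.27, against 0.03 over all genes. It takes in H19 and PLAGL1 with the few counts given above, so nothing is read from it.

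The responses of the lines were compared in a further test, for which the same vehicle libraries serve as the base. Of the 6 genes tested only SNRPN differed, by -1.45 ± 0.35 (response in the libraries labelled RPL3 KO minus that in HCT 116p53-/-, edgeR adjusted p = 0.0196). Of all genes tested 6.53% did (3.3% higher and 3.23% lower). The SNRPN call was kept in 15 of 19 alternative fits and lost in 4, each of which left out 1 library. These were HCT 116p53-/- vehicle replicate 1 (-1.20, adjusted p = 0.0722) or 2 (-1.43, 0.055), or Act D replicate 1 (-1.26, 0.09) or 3 (-1.42, 0.051). The difference rests on the low HCT 116p53-/- counts given above. It equals the line difference with Act D minus that with vehicle. SNRPN was noted for its line difference, so the p-value draws on the values that singled the gene out and gives no independent support. PEG10, called in both lines, had a difference of -0.10 ± 0.14 (adjusted p = 0.738), and those of IGF2 (0.08 ± 0.21, 0.885) and MEST (0.00 ± 0.14, 0.998) did not pass either. The median over the 6 genes was -0.05, against -0.01 over all genes. It takes in H19 and PLAGL1, which had few counts in the libraries labelled RPL3 KO, so nothing is read from it.

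**Figure D4:**
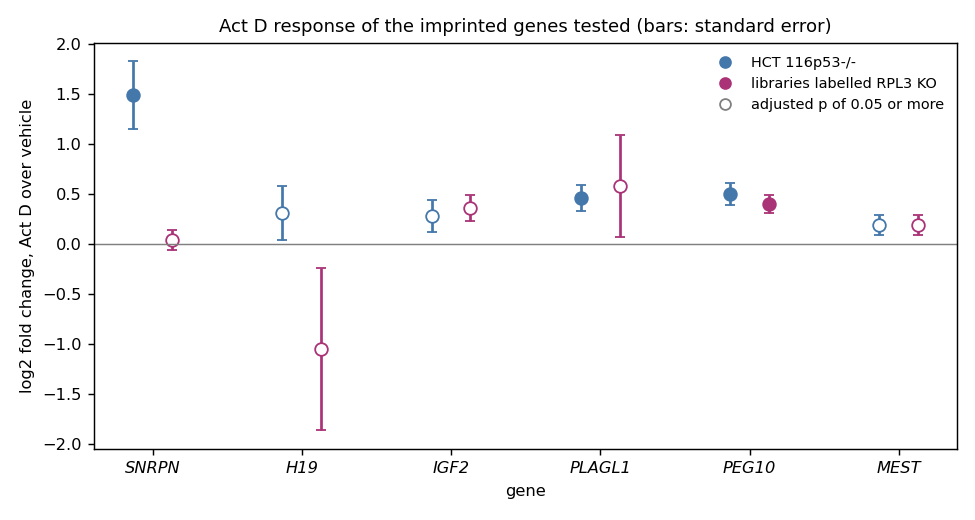
Act D response of the 6 imprinted genes tested, as the log2 fold change of Act D over vehicle with its standard error, in HCT 116p53-/- (blue) and in the libraries labelled RPL3 KO (purple); filled points passed an adjusted p of 0.05. PEG10 is filled in both lines at 0.50 and 0.40, and SNRPN in HCT 116p53-/- alone at 1.49, where its difference between the lines was -1.45.

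A wider list of 42 other imprinted genes, 28 of which passed the filter, was tested in the same fits. In the libraries labelled RPL3 KO with vehicle 8 of them were higher and 11 lower, where 35.1% of all genes tested were higher and 36.2% lower. With Act D 10 were higher and 12 lower, where 35.1% and 35.3% of all genes were. The shares called, 67.9% and 78.6% of those tested, stand beside 71.3% and 70.4% of all genes, and their medians, -0.18 and -0.23, beside -0.02 and -0.02. Imprinted genes as a list were therefore called about as often as other genes. By at least 4-fold, 9 of the 28 differed with vehicle, 3 higher and 6 lower, where 18.1% of all genes did. With Act D 8 did, 2 higher and 6 lower, where 17.5% of all genes did. Among the largest differences, SNURF and SNHG14 were higher and NAP1L5, HYMAI and DIO3 lower. SNURF and SNHG14 are among the genes counted as higher, and their differences are not independent of the one for which SNRPN was noted. NAP1L5, a paternally expressed gene that lies within an intron of another gene, had 78 counts over the HCT 116p53-/- vehicle libraries and none in the 6 libraries labelled RPL3 KO, which makes it at least 6.98-fold lower with vehicle.

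In the chromosome 11 domain next to IGF2, KCNQ1OT1, the paternal non-coding RNA that silences its neighbours in cis, had 45.1 ± 0.560 CPM in HCT 116p53-/- with vehicle and 102.4 ± 29.2 CPM in the libraries labelled RPL3 KO (log2 difference 1.18 ± 0.15, adjusted p = 1.57e-06). CDKN1C, a cell cycle inhibitor that KCNQ1OT1 is known to silence on the paternal copy, was higher as well, by 2.39 ± 0.18 (adjusted p = 1.55e-09). KCNQ1, the potassium channel gene within which KCNQ1OT1 is read from the other strand, had 160 counts against 2 (81.3-fold lower, 22.1 to 676.8). The sources used here do not state that strand was used in counting, so that reads of KCNQ1 and KCNQ1OT1, of UBE3A and SNHG14 and of MEST and COPG2 cannot be told apart where they overlap. Among the 28 other imprinted genes tested, Act D called 9 in HCT 116p53-/-, 6 higher and 3 lower (32.1%, against 18.7% of all genes). In the libraries labelled RPL3 KO it called 5, 2 higher and 3 lower (17.9%, against 11.9% of all genes). The count of 9 became 5 without HCT 116p53-/- Act D replicate 2. CDKN1C (0.75 ± 0.20, adjusted p = 0.0132) and PHLDA2, a growth-restraining gene of the same domain (0.63 ± 0.16, 0.00859), rose most in HCT 116p53-/-. Both calls were lost without Act D replicate 2 (0.48, 0.108 and 0.40, 0.071), and that of CDKN1C also without vehicle replicate 2 (0.66, 0.0577). CPA4 fell in the libraries labelled RPL3 KO (-0.70 ± 0.15, 0.00573). GRB10, an adaptor that restrains insulin and IGF receptor signalling, fell in both lines, by 0.78 ± 0.11 (adjusted p = 6.88e-05) and by 1.36 ± 0.10 (1.27e-06) on the log2 scale. BLCAP rose in both, by 0.55 ± 0.12 (adjusted p = 0.00294) and 0.49 ± 0.12 (0.0118), and KCNQ1OT1 rose in the libraries labelled RPL3 KO, by 0.65 ± 0.15 (0.00722). The BLCAP call there was lost without vehicle replicate 1 (0.40, 0.0512) and without Act D replicate 2 (0.43, 0.0574) or 3 (0.45, 0.052). The response differed between the lines for 3 of the 28 tested (10.7%, against 6.53% of all genes). These were PPP1R9A (1.08 ± 0.19, adjusted p = 0.0025), GRB10 (-0.58 ± 0.15, 0.026) and the ubiquitin ligase gene UBE3A (-0.54 ± 0.14, 0.0296). It differed for 1 of them without HCT 116p53-/- Act D replicate 2 or without Act D replicate 1 labelled RPL3 KO.

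Of 16 genes that write, read or protect imprints 12 passed the filter. With vehicle 10 were lower in the libraries labelled RPL3 KO, 1 was higher and 1, TET1, did not pass (median -0.90, against -0.02 over all genes, of which 36.2% were lower and 35.1% higher). The maintenance DNA methyltransferase DNMT1 went from 233.4 ± 18.0 to 125.4 ± 14.6 CPM (log2 difference -0.90 ± 0.09, adjusted p = 8.6e-08). ZNF445, a zinc finger that protects imprints, fell from 47.5 ± 1.49 to 16.8 ± 2.27 CPM, and the insulator protein CTCF, which binds the control region between IGF2 and H19, from 102.4 ± 0.509 to 60.0 ± 8.14 CPM. The gene that was higher was DNMT3A, a de novo methyltransferase (1.03 ± 0.13, adjusted p = 1.09e-06), while DNMT3B was lower (-1.62 ± 0.11, 5.03e-10). ZFP57 had 4 counts over all 12 libraries and DPPA3 none. With Act D, 5 of the 12 fell in HCT 116p53-/-, led by SMCHD1 (-0.82 ± 0.10, adjusted p = 1.6e-05), and 4 in the libraries labelled RPL3 KO, led by TET3 (-1.05 ± 0.12, 1.52e-05), and none rose in either by edgeR or DESeq2 (0 and 2 at an unadjusted p under 0.05; medians -0.19 and -0.11), where 11.1% and 8.4% of all genes fell. With Act D the lines again differed at 11 of the 12, 10 of them lower (median -0.82), where 70.4% of all genes differed. The response differed between the lines for DNMT3A (1.00 ± 0.19, adjusted p = 0.00393) and TET3 (-0.58 ± 0.15, 0.0294), where 6.53% of all genes did. TET3 lost that call without any 1 of 7 libraries, HCT 116p53-/- vehicle replicates 1 and 2 and Act D replicates 2 and 3, and vehicle replicate 1 and Act D replicates 1 and 3 labelled RPL3 KO, at adjusted p from 0.0514 to 0.0686, and also with library size alone (0.0569) and with the replicate number as a block (0.0592). Levels of the proteins and of methylation were not measured.

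**Figure D5:**
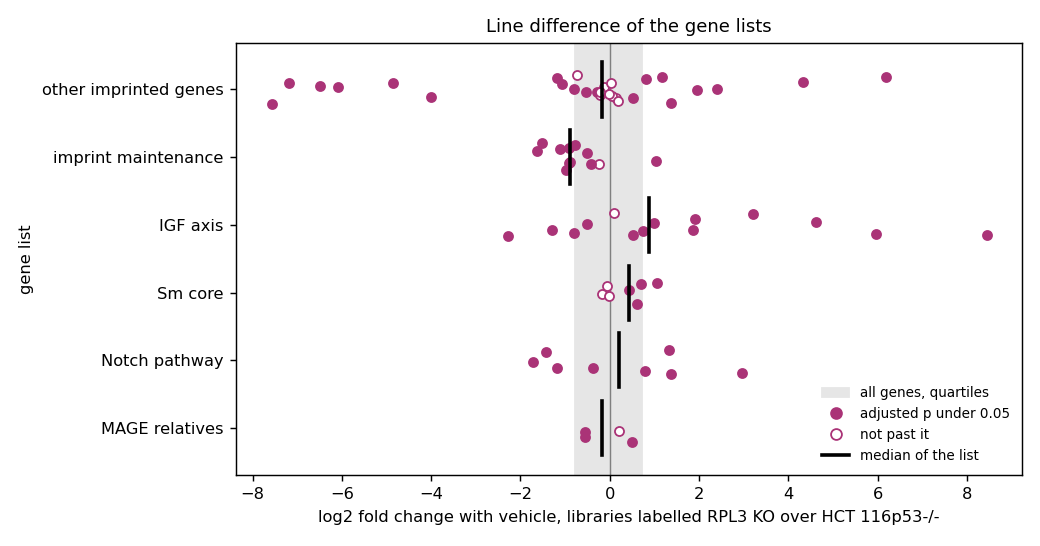
Fitted log2 difference with vehicle, libraries labelled RPL3 KO over HCT 116p53-/-, for each tested gene of 6 lists (1 point per gene, filled where the adjusted p was under 0.05, black bars for the list median, grey band for the quartiles of all 15692 genes, -0.77 and 0.72). The imprint maintenance list has its median at -0.90 and the other imprinted genes theirs at -0.18; the far left points of NAP1L5 and HYMAI rest on groups with no counts.

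The partners of single members differed between the lines as well. In the IGF axis, 14 of 16 genes passed the filter and 13 differed with vehicle, of which 9 were higher and 4 lower there (median 0.87), against 71.3% of all genes called. The receptor IGF1R, through which IGF2 signals, was higher (1.87 ± 0.13, adjusted p = 5.71e-10), and so was the clearance receptor IGF2R (0.51 ± 0.10, 0.000156), which is also in the wider imprinted list. IGF2BP1, which binds IGF2 mRNA, had 1.26 ± 0.490 against 79.0 ± 12.6 CPM, and IGFBP4, a secreted binding protein, 0.129 ± 0.00848 against 48.0 ± 9.03 CPM, whereas IGFBP2 was lower (-2.27 ± 0.13, 3.3e-11). The IGFBP4 level of 0.129 CPM lies under the level that 3 counts make in those libraries, 0.181 to 0.207 CPM. With Act D the lines differed at 11 of the 14, 9 higher and 2 lower (median 1.21), where 70.4% of all genes were called. Act D itself changed 7 of them in HCT 116p53-/- (2 higher, 5 lower, median 0.11), among them IGF1R (-0.74 ± 0.14, 0.00151) and the receptor substrate IRS1 (-0.84 ± 0.10, 1.26e-05), and 1 in the libraries labelled RPL3 KO, IRS1 (-0.48 ± 0.10, 0.00292; list median -0.07; 2 by DESeq2), where 18.7% and 11.9% of all genes were called. IGFBP5 rose most in HCT 116p53-/- (1.35 ± 0.40, adjusted p = 0.0238), though not without vehicle replicate 2 (0.95, 0.0958) or 3 (1.30, 0.0713), without Act D replicate 2 (0.86, 0.182), or when only those groups were fitted (1.35, 0.0578). The response differed between the lines for 3, IGFBP4, INSR and IGF2BP3 (5 by DESeq2), where 6.53% of all genes did. For IGFBP4 (-2.74) the call was lost without HCT 116p53-/- vehicle replicate 3 (-2.69, 0.0551) or Act D replicate 3 (-2.12, 0.0746). The IGFBP4 difference rests on the low HCT 116p53-/- vehicle level given above.

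SNRPB, whose proteins take the same place in the Sm ring as SmN, was abundant in both lines, at 251.9 ± 15.8 and 384.8 ± 45.5 CPM with vehicle (log2 difference 0.61 ± 0.09, adjusted p = 1.37e-05). Of the summed per-kilobase level of SNRPN and SNRPB, SNRPN made up 0.121% in HCT 116p53-/- with vehicle and 0.325% with Act D, and 23.7% and 26.8% in the libraries labelled RPL3 KO. All 7 Sm core genes passed the filter, and the counts of this list and of the next lists stand beside 71.3% and 70.4% of all genes called between the lines and 18.7% and 11.9% with Act D. With vehicle 4 were higher and none lower (0 at an unadjusted p under 0.05 and 0 by DESeq2; median 0.44), and with Act D 4 were higher and 1 lower (median 0.23). These directions rest on the scaling, since with library size alone 3 were higher and 3 lower with vehicle (median 0.20), 2 and 2 with Act D (median -0.01), and SNRPB with Act D went from 0.23 to -0.01. Act D called 0 of 7 in either line by edgeR or DESeq2, with 1 at an unadjusted p under 0.05 in each. The Notch list for DLK1 had 8 of 9 genes tested, with 4 higher and 4 lower with vehicle (median 0.21) and 2 higher and 4 lower with Act D (median -0.17), with a vehicle median of -0.03 when scaled by library size alone, while Act D called 4 in HCT 116p53-/- and 2 in the libraries labelled RPL3 KO. The ligand DLL4 rose most in HCT 116p53-/- (1.32 ± 0.35, adjusted p = 0.0146), but not without vehicle replicate 1 (1.19, 0.0578) or Act D replicate 2 (0.94, 0.111). JAG1, a further Notch ligand, rose in HCT 116p53-/- (0.36 ± 0.09, adjusted p = 0.00684), fell in the libraries labelled RPL3 KO (-0.42 ± 0.08, 0.00238) and differed in response (-0.78 ± 0.12, 0.000958), although its rise was lost with scaling by library size alone (0.26, 0.0696). Of the 6 MAGE relatives of NDN 4 were tested, with 1 higher and 2 lower with vehicle and 2 higher and 1 lower with Act D (1 and 2 with library size alone), and MAGEF1 was the 1 that changed with Act D (-0.52 ± 0.12 in HCT 116p53-/-, adjusted p = 0.00421). The genes whose level over the 12 libraries was most like that of SNRPN were TGM2, CA12 and AGR2 (Pearson's r of log2(CPM + 0.5) 0.999, 0.9988 and 0.9986). Since the libraries fall into 2 clusters by line, 415 genes had an r over 0.99 and the likeness describes the line difference alone.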

How the data were processed

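RNA-seq libraries (12 in 4 groups of 3) were analysed, with groups taken from the labels. Description labels number the RPL3 KO libraries with Act D from 4 to 6 and titles from 1 to 3, and the titles were used. The authors trimmed the reads, removed rRNA and PhiX reads and deposited expected counts made with RSEM 1.2.25 on the Ensembl annotation of hg38. The authors also deposited the posterior SD of each count, as another quantity in counts, the effective length in bases and the TPM of each transcript. Whether strand was used in counting is not given in the sources used here. For HCT 116p53-/- with vehicle replicate 2 the values of 226788 transcripts were summed per gene, with TPM as the weight for lengths. Names were paired with 60261 of the 60617 identifiers.

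Expected counts were rounded and tested with edgeR 4.0.16 (R 4.3.3), the quasi-likelihood test with 1 coefficient per group over all 12 libraries, after filterByExpr (15692 genes) and TMM scaling (factors 0.847 to 1.148). P-values were adjusted by Benjamini-Hochberg over all genes tested, with a threshold of 0.05, and were two-sided. CPM are counts per 1000000 of the TMM-scaled library total, and levels per kilobase were divided by effective length. Ratios of summed counts carry exact 95% intervals, which cover counting error only, and with 3 libraries a group p-values measure only the spread between these samples. DESeq2 1.42.0, other scalings and filters, the replicate block, fits of only the groups compared and each library left out were tried.

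The members and the 10 lists were chosen with earlier results of these data known. Genes to name were the members, their neighbours and, per list and comparison, the 2 genes with the largest called change in each direction with a mean of at least 1 CPM in a group, of which not every one is printed. CPA4, COPG2, KCNQ1, BLCAP, DNMT1, CTCF, IGF1R, IGF2R and the epithelial and fibroblast genes named were in part named outside this rule, for their place or role, after their values were seen. Upstream windows are RefSeq sequences.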

Additional observations from a re-analysis of the deposited data

Results flagged for a closer look

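The Act D response differed between the lines for 4 imprinted genes, tested as response in the libraries labelled RPL3 KO minus that in HCT 116p53-/- (edgeR quasi-likelihood, adjusted over all genes). SNRPN had -1.45 on the log2 scale (adjusted p = 0.0196), from 1.49 in HCT 116p53-/- and 0.04 in the libraries labelled RPL3 KO. It lost the call in the 4 fits named in the report. Its p-value draws on the line difference for which SNRPN was noted and gives no independent support. PPP1R9A, a regulatory subunit of protein phosphatase 1 in the PEG10 cluster, had 1.08 (adjusted p = 0.0025), from -0.77 and 0.30 (adjusted p = 0.152 for the latter), and kept its call in all 18 alternatives run. GRB10 had -0.58 (adjusted p = 0.026), a steeper fall in the libraries labelled RPL3 KO, and the call was lost without HCT 116p53-/- vehicle replicate 1 (-0.52, adjusted p = 0.0597), Act D replicate 1 (-0.61, 0.0521) or 2 (-0.56, 0.0694), without Act D replicate 1 labelled RPL3 KO (-0.58, 0.0562), and with scaling by library size alone (-0.59, 0.0525). UBE3A had -0.54 (adjusted p = 0.0296), from -0.16 and -0.70, and lost the call in 7 of the 12 fits that left out 1 library (HCT 116p53-/- vehicle replicates 2 and 3 and Act D replicates 2 and 3, and vehicle replicate 1 and Act D replicates 1 and 3 labelled RPL3 KO), at adjusted p from 0.0517 to 0.0871. Groups of 3 libraries are too small to test for a single deviating library.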

How the results depend on the processing

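Counts of called genes were recomputed under each alternative, and with single libraries left out. For Act D in HCT 116p53-/-, 2939 genes were called (1833 to 2312 with a library left out, 2469 to 3561 otherwise), with 9 of the other imprinted genes (5 to 7) and 3 members (2 to 3). In the libraries labelled RPL3 KO 1869 were called (1272 to 1709), with 5 other imprinted genes (4 to 5) and 1 member (1 to 2, and 0 with scaling by library size alone). The response differed for 1025 genes (614 to 979), 3 other imprinted genes (1 to 3) and 1 member (0 to 1); the lowest counts of genes came without Act D replicate 1 of either line (1833 in HCT 116p53-/-, 614 for the difference). Line differences were called for 11185 genes with vehicle (10677 to 11251) and 11043 with Act D (10520 to 10780), and for 19 (18 to 20) and 22 (19 to 22) other imprinted genes. Same-numbered vehicle and Act D libraries did not deviate together throughout (correlation of deviations 0.093, 0.178 and 0.176 in HCT 116p53-/-; -0.072, -0.024 and -0.269 in the libraries labelled RPL3 KO), so the numbers were not taken as pairs. With the replicate number as a block 2469, 1502 and 722 genes were called for the Act D responses and their difference, and the other imprinted genes whose response differed went from 3 to 1, where GRB10 (adjusted p = 0.053) and UBE3A (0.0592) lost the call. Scaling by library size alone shifted the all-gene median by -0.10 for Act D in either line and by -0.24 between the lines, and SNRPB with Act D went from 0.23 to -0.01 between the lines. Of 2814 values of single genes under alternatives, 2693 stayed on their side of the threshold or within the spread between replicates. A further 84 lost and 23 gained a call, 13 moved by over the spread between replicates and 1 changed sign past the threshold. The 2693 include 88 uncalled values that changed sign. The causes were not tested. Setting SNRPN beside the 86 genes far higher in the libraries labelled RPL3 KO was chosen after seeing the data. Depth limits MEG3, DLK1, NDN and PEG3 in all libraries, SNRPN in HCT 116p53-/- and H19 and PLAGL1 in the libraries labelled RPL3 KO.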
